A study of Homo sapiens with 35 samples.

Results

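The comparison described here is that of CDK8 knockdown with CDK19 knockdown in HCT116 cells held at 1% oxygen for 24 h. Its members were chosen by sample title: 2 arrays of hypoxic shCDK8 cells and 2 arrays of hypoxic shCDK19 cells, 4 of the 35 arrays in the series, described across the 18404 genes with a tested row. HCT116 is an established human colorectal carcinoma line. Total RNA of whole cultures was hybridised to a whole-transcript gene array, 1 sample per array, and the deposited values are log2 signals with a floor at 4.32 (20 before the logarithm). The hairpins targeted CDK8 (shCDK8), CDK19 (shCDK19) or no human transcript (non-target, shControl), and the lines were cultured under 1% oxygen for 24 h, in normal growth, with 5-fluorouracil (5FU) for 12 h or in low glucose medium for 24 h. Arrays with DMSO for 12 h and in high glucose for 24 h exist for shControl only. They were used only in an alternative fit of all 35 arrays.

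The hypoxic shCDK8 and shCDK19 groups had 2 arrays each. The same lines had 3 arrays each in normal growth, 2 each with 5FU and 3 each in low glucose medium, and these 16 arrays entered the fit together with the 4 hypoxic ones, so that 8 groups shared 1 estimate of the spread with 12 residual degrees of freedom. No shControl array entered this fit. Each target was represented by 1 hairpin line, so the knockdown and other properties of that line cannot be told apart. The labels do not say that replicates came from separate cultures, so p-values measure the spread between arrays, which may be technical. No arrays titled as normoxic controls of the hypoxic arrays were analysed here. The sample titles do not say whether hypoxic and other arrays were run together. Oxygen and experiment therefore cannot be told apart where hypoxic and other arrays are set side by side. The difference between the lines is taken within each condition and shares no array with the differences in the other conditions.

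CDK8 and CDK19 are paralogous kinases. Either can join cyclin C, MED12 and MED13 (or their paralogs MED12L and MED13L) in the kinase module, which binds reversibly to Mediator, the complex that relays signals from transcription factors to RNA polymerase II. When oxygen is low, the prolyl hydroxylases that mark HIF1A and EPAS1 (HIF2A) for destruction lose activity. The stabilised factors pair with ARNT and bind promoters and enhancers of genes for glycolysis, angiogenesis and adaptation to low oxygen. CDK8 is known as a coactivator of HIF1A in HCT116 cells, acting on the elongation of RNA polymerase II at its target genes.

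Replicates of a line correlated with r = 0.995 in either line across all transcript clusters, whereas shCDK8 and shCDK19 arrays correlated with r between 0.981 and 0.985. The within-group SD, pooled over genes as the root of the mean variance, was 0.119 on the log2 scale in hypoxic shCDK8 cells and 0.115 in hypoxic shCDK19 cells. It was 0.295 in hypoxic shControl cells, where replicate 1 stood apart, with r between 0.963 and 0.981 to the other 5 hypoxic arrays. Of 12 colon epithelium markers 8 lay above the array median on the 4 arrays, with summed signals of 14.97 to 15 in shCDK8 cells and 15.34 to 15.36 in shCDK19 cells (log2). EPCAM, CDH1, KRT19, CLDN7 and ELF3 were lower in the shCDK8 line, and KRT8, KRT18 and KRT20 were higher. Of the markers of other cell types, COL1A1 and CD68 alone passed the test, both lower in the shCDK8 line. LUM lay at the floor on the 4 arrays, DCN lay between 4.32 and 4.34 and PTPRC between 4.38 and 4.44. Summed signals of the fibroblast list were 9.98 to 10.02 in shCDK8 cells and 10.33 to 10.4 in shCDK19 cells. Those of the leukocyte list were 11.08 to 11.09 in shCDK8 cells and 11.32 in shCDK19 cells, and those of the endothelium list 9 to 9.22 in shCDK8 cells and 9.12 in shCDK19 cells. The part of these differences in the results below was not tested.

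The targeted transcripts differed between the lines in opposite directions. CDK8 was measured by 1 transcript cluster that the annotation lists with ADRA1B, an adrenergic receptor gene. This cluster had log2 signals of 8.07 and 7.97 in hypoxic shCDK8 cells and of 10.64 and 10.72 in hypoxic shCDK19 cells. The cluster read 6.32-fold lower in shCDK8 cells (log2 difference -2.66 ± 0.25 SE, adjusted p = 4.81e-06 from limma over all transcript clusters, of which 22.2% passed). CDK19 had 9.68 and 9.60 in shCDK8 cells and 7.96 and 8.15 in shCDK19 cells, which made it 3.0-fold higher in the shCDK8 line (1.58 ± 0.14, adjusted p = 8.27e-07). The values of the lines did not overlap for either transcript, which was also so for 63.7% of all genes tested. The size of either difference under hypoxia could not be told from its mean size in the other 3 conditions, with log2 departures of -0.31 ± 0.28 (adjusted p = 0.652) for the CDK8 cluster and 0.05 ± 0.16 (adjusted p = 0.911) for CDK19.

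**Figure D1:**
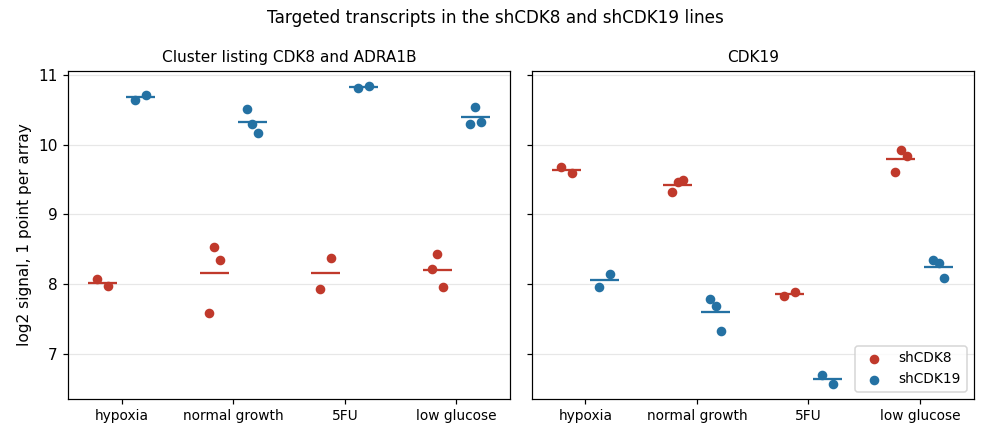
Log2 signal of the cluster that lists CDK8 and ADRA1B (left) and of CDK19 (right), 1 point per array with a bar at the group mean, in shCDK8 (red) and shCDK19 (blue) cells under hypoxia and in the other 3 conditions. Under hypoxia the CDK8 cluster lay at 8.07 and 7.97 in shCDK8 cells and at 10.64 and 10.72 in shCDK19 cells, and CDK19 lay higher in shCDK8 cells in each of the 4 conditions.

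Among the other genes of the kinase module, MED13L (0.56 ± 0.047, adjusted p = 4.19e-07) and MED13 (0.28 ± 0.060, adjusted p = 0.00211) were higher in the hypoxic shCDK8 line, and CCNC, which encodes cyclin C, was lower (-0.38 ± 0.11, adjusted p = 0.0167). MED12 differed by 0.18 ± 0.081 (adjusted p = 0.107) and MED12L by 0.21 ± 0.12 (adjusted p = 0.203). Of 24 core Mediator genes 6 were higher (25%, against 18.6% of all genes) and 7 lower (29.2%, against 13.9%), with a median of -0.02. MED8, a head module subunit, was lower by most (-0.86), and MED23, a tail subunit, was higher by most (0.70). With the 2 shControl arrays in place of the 16 arrays from the other conditions, 1 of these 24 passed, against 2273 of 18404 genes.

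Across all genes, 5988 of 18404 (32.5%) passed an adjusted p of 0.05 between the hypoxic lines. Of these 3428 (18.6%) were higher in the shCDK8 line and 2560 (13.9%) were lower, and the median difference over all genes was -0.021 on the log2 scale. At least 2-fold differences were found for 385 genes (2.09%) in the higher direction and 262 (1.42%) in the lower. The replicate values of the lines did not overlap for 63.7% of genes. In a fit of the 4 hypoxic arrays alone 4914 genes passed, of which 4627 also passed with 20 arrays. Both fits take the difference from the same 4 arrays, so only the call and not the direction could change. With the shControl arrays added to these 4, 2273 of 18404 passed, the background for the list counts of that fit. Subtracting each array's median left 2954 higher and 3173 lower genes, so 48.2% of calls were higher, against 57.2% as deposited. In RNA from whole cultures, fewer cells of a type and less RNA per cell cannot be told apart.

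TNFSF18, which encodes the ligand of the immune receptor GITR, showed the largest difference, 49.8-fold higher in the shCDK8 line (5.64 ± 0.17). Its log2 signal was 10.61 and 10.55 in shCDK8 cells and 5.05 and 4.83 in shCDK19 cells, and the hypoxic shControl arrays had 4.63 and 4.56. TNFSF4, the gene of the OX40 ligand, had 10.11 and 9.98 in shCDK8 cells and 5.64 and 5.53 in shCDK19 cells, a 22.1-fold difference (4.46 ± 0.16). For these genes the shCDK19 line lay near the shControl arrays and the shCDK8 line lay far above. TNFSF18 and TNFSF4 are neighbours on chromosome 1, with 0 coding genes between them in the RefSeq gene table. Of the 15 TNF family ligands tested 3 were higher and 0 lower, the other being TNFSF13B, the gene of the B cell survival factor BAFF (0.56 ± 0.13, adjusted p = 0.00292), and 12 did not pass. The share of 20% higher is near the 18.6% of all genes. Their median of 0.03 became -0.03 after subtraction of the array medians.

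The membrane protein gene TM4SF18 was 22-fold higher in the shCDK8 line (4.46 ± 0.16), the lysozyme gene LYZ 16.2-fold (4.02 ± 0.18) and the matricellular gene SPARC 13.1-fold (3.71 ± 0.20). SEMA3A, which encodes a secreted axon guidance factor, had 12.74 on both shCDK8 arrays and 8.65 and 8.86 on the shCDK19 arrays, a 15.8-fold difference (3.98 ± 0.10). Of the 14 class 3 semaphorin and receptor genes 6 were higher (42.9%, against 18.6% of all genes) and 0 lower (13.9% of all genes). Among the higher were SEMA3C (2.10 ± 0.19) and the receptor genes PLXNA1 (0.98 ± 0.082) and NRP2 (0.95 ± 0.11). AOAH, which encodes an enzyme that deacylates bacterial endotoxin, was 10.7-fold higher (3.42 ± 0.16). PRKAA2, the gene of the alpha 2 catalytic subunit of AMP-activated kinase, was 10.4-fold higher (3.38 ± 0.15), with 9.77 and 9.71 in shCDK8 cells and 6.33 and 6.39 in shCDK19 cells. In hypoxic shControl cells PRKAA2 had 8.12 and 8.71, between the values of the knockdown lines. The transporter gene SLCO3A1 (3.37 ± 0.080) and the zinc finger gene ZBED2 (3.33 ± 0.13) completed the 10 largest differences in the higher direction. PMEPA1, which encodes an inhibitor of TGF-beta signalling (3.04 ± 0.20), the keratin gene KRT13 (2.83 ± 0.14), the peroxidasin gene PXDN (2.74 ± 0.15), the cyclin gene CCNE2 (2.63 ± 0.20) and ID3, which encodes an inhibitor of basic helix-loop-helix factors (2.59 ± 0.083), followed. The adjusted p-values of these 15 genes lay at or below 2.01e-07.

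CYB5A, the gene of a microsomal electron carrier, was lower by most in the shCDK8 line, 17.2-fold (-4.11 ± 0.20). It had log2 signals of 6.68 and 6.09 in shCDK8 cells and 10.49 and 10.50 in shCDK19 cells, and the shControl arrays lay at 9.98 and 9.78. SLC1A3, which encodes a glutamate and aspartate transporter, was 15.4-fold lower (-3.95 ± 0.14), with 6.59 and 6.31 in shCDK8 cells and 10.33 and 10.47 in shCDK19 cells. Unlike CYB5A, SLC1A3 lay near the shCDK8 values in hypoxic shControl cells (7.29 and 7.41). The calcium-binding protein gene S100A14 was 9.47-fold lower (-3.24 ± 0.11) and the membrane protease gene PRSS8 was 9.43-fold lower (-3.24 ± 0.081). MEF2C, which encodes a MADS-box transcription factor, was 9.15-fold lower (-3.19 ± 0.13), and MPP7, the gene of a scaffold of cell junctions, 9.12-fold (-3.19 ± 0.15). AP1M2, an epithelial subunit of the AP-1 clathrin adaptor (-3.04 ± 0.084), MACC1, a transcriptional regulator studied in colon cancer metastasis (-3.03 ± 0.14), and the endothelial lipase gene LIPG (-3.01 ± 0.16) were about 8-fold lower. RGS2, a regulator of G protein signalling (-2.99 ± 0.099), ANKRD37 (-2.99 ± 0.14), the adhesion receptor gene ADGRF1 (-2.93 ± 0.17), the sterol sensor gene INSIG1 (-2.92 ± 0.10), the cytochrome P450 gene CYP4F11 (-2.80 ± 0.15) and the glucocorticoid-induced gene TSC22D3 (-2.77 ± 0.11) completed the list of 15. Their adjusted p-values lay at or below 1.32e-08. TSC22D3 had 8.83 and 8.49 in shCDK8 cells, 11.31 and 11.54 in shCDK19 cells and 9.29 and 9.62 in shControl cells.

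Beyond these genes, 58 genes lay at the floor on both shCDK8 arrays while above it on at least 1 shCDK19 array, and 49 lay at the floor on both shCDK19 arrays while above it on at least 1 shCDK8 array. Of these genes 3 passed the test, and for them the level in one line is known only as a bound. These calls were not stable: each was lost with the shControl arrays and in 3 of the 4 fits without 1 hypoxic array, NIPSNAP3B and SUCNR1 also with the 4 hypoxic arrays alone and after subtraction of array medians, SUCNR1 with the replicate block and SERPINB4 with all 35 arrays. Without shCDK8 replicate 1 the difference of SUCNR1 was 0.09, against 0.23 with it, and that of NIPSNAP3B 0.15, against 0.25. NIPSNAP3B (4.67 and 4.47) and SUCNR1, the succinate receptor gene (4.70 and 4.41), were above the floor in shCDK8 cells, and SERPINB4, a serpin gene, was above it in shCDK19 cells (4.62 and 4.67).

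Many of the largest differences were present without hypoxia. The difference between the lines correlated across genes with r = 0.72 between hypoxia and normal growth, 0.47 between hypoxia and low glucose and 0.21 between hypoxia and 5FU (genes are not independent, and the same lines enter each). Of the genes called under hypoxia, 3168 were also called in the same direction in normal growth, which is 52.9% of the hypoxia calls and 61.8% of the 5128 calls in normal growth (27.9% of all genes, 13.5% higher and 14.3% lower). For low glucose the number was 1999, 33.4% of the hypoxia calls and 49.7% of 4025 (21.9%, 12.7% higher and 9.14% lower), and for 5FU it was 840, 14% of the hypoxia calls and 37.7% of 2228 (12.1%, 5.29% higher and 6.81% lower). Calls in opposite directions numbered 224 with normal growth, 428 with low glucose and 507 with 5FU. The difference was called the same way in the 4 conditions for 183 higher (0.994%) and 219 lower (1.19%) genes. TNFSF4, TM4SF18, SEMA3A and AOAH led this group in the higher direction, CYB5A, SLC1A3, S100A14 and PRSS8 in the lower.

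The test of the hypoxia difference against the mean of the other 3 differences asks where the lines differed in another way under hypoxia. It called 4080 genes (22.2%), 2427 of them (13.2%) in the positive and 1653 (8.98%) in the negative direction. After subtraction of the array medians the split was 1883 to 2230, 45.8% positive against 59.5% as deposited. Against normal growth alone 2487 genes (13.5%) passed, 8.67% of all genes in the positive and 4.85% in the negative direction. The departure was called the same way against each of the 3 conditions for 854 genes (4.64%) in the positive and 510 (2.77%) in the negative direction, and 833 (4.53%) and 492 (2.67%) of these were also called between the hypoxic lines in that direction.

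ID3 had the largest departure in the positive direction among the genes called against each condition (2.46 ± 0.094, adjusted p = 1.5e-09). It had 11.06 and 11.01 in hypoxic shCDK8 cells and 8.47 and 8.42 in hypoxic shCDK19 cells, while the group means in normal growth were 11.07 and 10.11. CCNE2, which encodes cyclin E2, had 9.34 and 9.33 in hypoxic shCDK8 cells and 6.97 and 6.45 in hypoxic shCDK19 cells (departure 2.44 ± 0.23). The means of CCNE2 in normal growth were 9.58 and 9.07, so that for both genes the hypoxic shCDK19 arrays held the lowest of the 4 levels. Oxygen and experiment cannot be told apart across these levels. ABCC2, an organic anion efflux transporter gene (2.09 ± 0.066), FGF9, a growth factor gene (2.07 ± 0.19), and the zinc finger gene ZNF594 (2.13 ± 0.26) followed. FGF9 had 8.96 and 8.99 in hypoxic shCDK8 cells and 6.95 and 6.87 in hypoxic shCDK19 cells, and in normal growth the means were 8.89 and 8.80.

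TNFSF18 (3.22 ± 0.19), LYZ (2.57 ± 0.20), SPARC (2.42 ± 0.22) and ZBED2 (2.22 ± 0.15) also had large departures from the mean of the 3 conditions. Their differences in normal growth were 5.21, 4.13, 2.97 and 2.85, in the order named, and with 5FU they were 0.47, 0.15, 0.54 and -0.11. Against normal growth alone none of these 4 passed, with LYZ at -0.11. The small nucleolar RNA SNORA38B (2.89 ± 0.77, adjusted p = 0.013) had a standard error several times that of the other genes, and its hypoxic shControl arrays read 9.20 and 11.67. Against normal growth alone it did not pass either (2.09, adjusted p = 0.155), nor did its departure pass without shCDK8 replicate 1 (2.85) or without shCDK19 replicate 1 (2.72).

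In the negative direction ANKRD37, INSIG1, MXD1, DUSP1, DDIT3, HMGCS1, TSC22D3, IL1RAP, STARD4 and HILPDA led, with departures between -2.85 and -2.10. MXD1, which encodes a partner of MAX that represses MYC target genes, had 8.57 and 8.45 in hypoxic shCDK8 cells and 11.02 and 11.14 in hypoxic shCDK19 cells. Its difference was -2.57 under hypoxia, against -0.04 in normal growth, 0.09 with 5FU and 0.16 in low glucose. IL1RAP, the interleukin 1 receptor accessory protein gene, differed by -2.17 under hypoxia, against 0.02, 0.10 and 0.42 in the same order. The hypoxic shControl arrays read 10.60 and 11.08 for MXD1, near the shCDK19 line, and 7.60 and 7.85 for IL1RAP, between the lines.

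**Figure D2:**
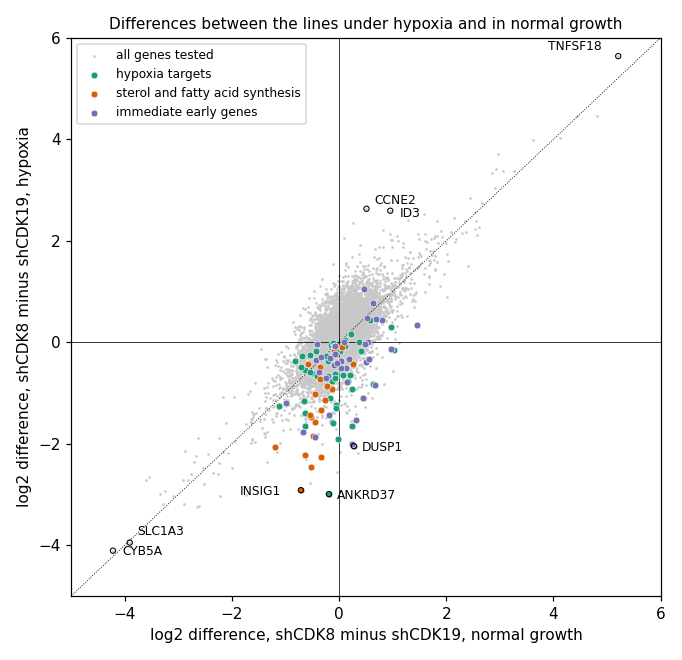
Log2 difference between the lines (shCDK8 minus shCDK19) under hypoxia (vertical) against that in normal growth (horizontal), 1 grey point per gene, with 3 gene lists in colour and a dotted line of equal differences. TNFSF18, CYB5A and SLC1A3 lie near the line of equal differences, while ANKRD37 (-2.99 against -0.19), INSIG1 (-2.92 against -0.71) and most other coloured points lie below it, and CCNE2 (2.63 against 0.51) lies above it.

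Genes induced through HIF were mostly lower in the hypoxic shCDK8 line than in the hypoxic shCDK19 line. Of 49 hypoxia target genes tested 32 were lower (13.9% over all genes) and 2 higher (18.6% over all genes), and 15 did not pass. The median difference was -0.61, against -0.021 for all genes. In normal growth 17 were lower (14.3% over all genes) and 9 higher (13.5%), with a median of -0.12. The medians were -0.05 with 5FU and -0.13 in low glucose. The departure from the 3 other conditions was negative for 27 members (8.98% over all genes) and positive for 0 (13.2%). In the negative direction 16 (2.67%) were called against each condition and between the hypoxic lines.

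ANKRD37, an ankyrin repeat gene known as a HIF1A target, had 8.59 and 8.57 in hypoxic shCDK8 cells and 11.51 and 11.64 in hypoxic shCDK19 cells. In normal growth its means were 7.48 and 7.68, and hypoxic shControl cells read 11.03 and 11.04. The lines were thus apart by 7.96-fold under hypoxia (adjusted p = 1.31e-09), while their difference of -0.19 in normal growth did not pass (adjusted p = 0.264). HILPDA, which encodes an inhibitor of lipid droplet breakdown, had 10.25 and 10.07 in shCDK8 cells and 12.07 on both shCDK19 arrays, 3.77-fold lower in the shCDK8 line (adjusted p = 3.02e-08). ANGPTL4, a secreted inhibitor of lipoprotein lipase, had 10.65 and 10.56 in shCDK8 cells and 12.25 and 12.27 in shCDK19 cells, 3.15-fold lower (adjusted p = 5.02e-07). The values of the 2 lines did not overlap for any of these 3 genes, which was also so for 63.7% of all genes.

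ADM, the gene of the vasodilator adrenomedullin, had 11 and 11.1 in shCDK8 cells and 12.70 and 12.71 in shCDK19 cells (-1.66 ± 0.092). INSIG2, a sterol sensor (-1.59 ± 0.17), and DDIT4, which encodes the mTORC1 inhibitor REDD1 (-1.57 ± 0.092), were each about 3-fold lower in the shCDK8 line. VEGFA, the angiogenic growth factor gene, had 10.89 and 10.82 in shCDK8 cells and 11.93 and 11.96 in shCDK19 cells, 2.13-fold lower (-1.09 ± 0.066, adjusted p = 1.54e-08). Its differences in the other conditions were -0.16 in normal growth, -0.06 with 5FU and 0.06 in low glucose. NDRG1, a growth and differentiation gene, was 1.56-fold lower (-0.64 ± 0.078, adjusted p = 1.52e-05). Lower values were also measured for the MYC antagonist MXI1 (-1.33), the clock repressors BHLHE41 (-1.39) and BHLHE40 (-0.83), the glycogen regulator PPP1R3B (-1.29), the ephrin gene EFNA3 (-1.26), the mitophagy receptors BNIP3 (-0.55) and BNIP3L (-0.37) and the histone demethylase KDM3A (-0.62). The 2 higher members were the glucose transporter gene SLC2A1 (0.31 ± 0.050) and the ubiquitin ligase gene WSB1 (0.43 ± 0.11). LDHA (-0.10), EGLN3 (-0.17), PLOD1 (-0.07) and LOX (-0.17) were among the 15 that did not pass.

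Promoter windows of hypoxia targets are shown because HIF binds the core ACGTG of the hypoxia response element. Of 39 listed targets with a RefSeq promoter (GRCh38.p14), 25 (64.1%) held ACGTG on either strand within 250 bases before the start, against 3660 of 14230 tested genes (25.7%). A match describes the letters and not a bound site. The windows of 100 bases below run in the direction of the gene, with ACGTG or its complement CACGT in capitals, and lie at chr4:185396631-185396730 (plus strand), chr19:8363905-8364004 (plus strand) and chr10:72273751-72273850 (plus strand). The ANKRD37 window holds 3 matches, of which 2 overlap as the palindrome CACGTG.
ANKRD37: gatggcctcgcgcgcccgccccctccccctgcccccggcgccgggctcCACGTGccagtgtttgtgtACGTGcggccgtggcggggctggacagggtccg
ANGPTL4: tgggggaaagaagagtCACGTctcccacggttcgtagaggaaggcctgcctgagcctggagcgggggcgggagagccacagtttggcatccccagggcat
DDIT4: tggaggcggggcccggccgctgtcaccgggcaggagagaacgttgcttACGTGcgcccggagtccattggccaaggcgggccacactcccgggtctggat

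Of 12 oxygen sensing genes 3 were higher (25%, against 18.6% of all genes) and 4 lower (33.3%, against 13.9%) in the hypoxic shCDK8 line. HIF1A itself differed by -0.18 ± 0.11 (adjusted p = 0.265). EPAS1, which encodes HIF2A, had 9.27 and 9.09 in shCDK8 cells and 11.13 and 11.16 in shCDK19 cells, 3.9-fold lower (-1.96 ± 0.080). Its difference in normal growth was -1.57. CITED2, an inhibitor of HIF1A binding to p300 (-0.94 ± 0.069), and SIAH2, a ligase that degrades prolyl hydroxylases (-0.69 ± 0.083), were lower, and VHL, the ligase component that recognises hydroxylated HIF (0.81 ± 0.10), the HIF partner ARNT2 (0.96 ± 0.15) and the asparaginyl hydroxylase gene HIF1AN (0.69 ± 0.18) were higher. VHL had 9.32 and 9.31 in shCDK8 cells and 8.54 and 8.47 in shCDK19 cells.

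Of 22 glycolysis genes 10 were lower (45.5%, against 13.9% of all genes) and 3 higher (13.6%, against 18.6%). Their median of -0.15 was close to the -0.14 of normal growth. HK2, the hexokinase isoform induced in tumours, was 2.5-fold lower (-1.32 ± 0.10), followed by the aldolase gene ALDOC (-0.997 ± 0.11), the glucose transporter gene SLC2A3 (-0.93 ± 0.060) and the fructose bisphosphate regulators PFKFB4 (-0.88 ± 0.14) and PFKFB3 (-0.66 ± 0.051). SLC2A3 differed by 0.24 in normal growth and by -1.55 in low glucose. In the fit of 4 hypoxic and 2 shControl arrays 6 of the 22 passed, and 4 of the 12 oxygen sensing genes. Over all genes 2273 of 18404 passed in that fit.

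The genes of sterol synthesis had the largest median difference of the gene lists described here. These genes are activated by SREBF2, a membrane-bound factor that INSIG1 and INSIG2 retain in the endoplasmic reticulum when sterols are plentiful. Of 22 genes of sterol and fatty acid synthesis 20 were lower in the hypoxic shCDK8 line (13.9% over all genes) and 0 higher, with a median of -1.08. In normal growth 16 were lower (14.3% over all genes) and 1 higher, with a median of -0.36, and the medians were 0.22 with 5FU and 0.05 in low glucose. The departure from the 3 other conditions was negative for 20 members (8.98% over all genes). In that direction 18 (2.67%) were called against each condition and between the hypoxic lines.

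INSIG1 had 9.11 and 9.08 in hypoxic shCDK8 cells and 12.01 and 12.00 in hypoxic shCDK19 cells, 7.55-fold lower (adjusted p = 8.3e-11). HMGCS1, which encodes an early enzyme of the mevalonate pathway, had 8.41 and 8.22 in shCDK8 cells and 10.52 and 11.02 in shCDK19 cells, 5.46-fold lower. STARD4, a sterol carrier gene, had 8.77 and 8.65 in shCDK8 cells and 10.99 and 10.96 in shCDK19 cells, 4.81-fold lower. The hypoxic shControl arrays read 11.49 and 11.52 for INSIG1, 9.35 and 10.01 for HMGCS1 and 10.41 and 10.97 for STARD4, above the shCDK8 line in each case. MSMO1 (-2.23 ± 0.11), SQLE (-2.06 ± 0.15) and IDI1 (-1.86 ± 0.12), enzymes of later steps, and SREBF2 itself (-1.43 ± 0.080) were also lower. Among the fatty acid genes, FASN (-0.86), ACLY (-0.48), SCD (-0.36) and ELOVL6 (-0.42) were lower, and ACACA (-0.09), which encodes an acetyl-CoA carboxylase, and the mevalonate pathway gene PMVK (-0.15) did not pass.

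Of 20 listed sterol and fatty acid genes with a RefSeq promoter 1 (5.0%) held TCACNCCAC, the sterol regulatory element with 1 free base, on either strand within 250 bases before the start, against 1.19% of all tested genes. That gene was SREBF2, and its window at chr22:41832926-41833025 (GRCh38.p14, plus strand) is shown with the match in capitals.
SREBF2: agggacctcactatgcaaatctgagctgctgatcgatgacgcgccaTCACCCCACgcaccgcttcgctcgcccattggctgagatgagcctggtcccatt

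Immediate early genes, which respond within minutes to growth factors and stress, were mostly lower as well. Of 38 tested 23 were lower (60.5%, against 13.9% of all genes) and 6 higher (15.8%, against 18.6%), with a median of -0.36. In normal growth the counts ran the other way, with 7 lower (18.4%, against 14.3%) and 16 higher (42.1%, against 13.5%). The median there was 0.11. The departure from the 3 other conditions was negative for 24 members (8.98% over all genes) and positive for 2 (13.2%). In the negative direction 16 (2.67%) were called against each condition and between the hypoxic lines.

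DUSP1, which encodes a phosphatase of MAP kinases, had 9.18 and 9.14 in hypoxic shCDK8 cells and 11.16 and 11.26 in hypoxic shCDK19 cells, 4.14-fold lower (adjusted p = 6.34e-09). In each other condition it was higher in the shCDK8 line, by 0.28 in normal growth (adjusted p = 0.0365), 0.79 with 5FU (adjusted p = 0.000281) and 0.58 in low glucose (adjusted p = 0.000343). The sign of the difference thus turned, and the hypoxic shControl arrays read 11.57 and 11.67, above both lines. The nuclear receptor genes NR4A2 (-2.005 ± 0.16), NR4A3 (-1.53 ± 0.091) and NR4A1 (-1.43 ± 0.13) were lower together. NR4A2 had 10.27 and 10.14 in shCDK8 cells and 12.17 and 12.26 in shCDK19 cells. ZFP36, which encodes an mRNA decay factor (-1.86 ± 0.073), and DUSP5, another MAP kinase phosphatase gene (-1.76 ± 0.063), were lower by a similar amount. Smaller differences were measured for EGR1 (-1.20), FOSB (-0.84), FOS (-0.79), MYC (-0.35) and JUN (0.01), of which JUN did not pass. The 6 higher members included DUSP6 (1.05) and SPRY2 (0.77), feedback inhibitors of ERK signalling, and KLF4 (0.34). KLF4 was higher by 1.46 in normal growth, and its departure under hypoxia was -0.86 ± 0.13.

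TGACGTCA, the full cyclic AMP response element, stood in the promoters of 2 of 28 immediate early genes (7.14%), against 2.83% of all tested genes. The DUSP1 window at chr5:172771267-172771366 (GRCh38.p14, minus strand, in the direction of the gene) is shown because DUSP1 changed sign between conditions, with the match in capitals.
DUSP1: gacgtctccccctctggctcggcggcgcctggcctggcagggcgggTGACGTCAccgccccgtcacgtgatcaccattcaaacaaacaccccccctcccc

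**Figure D3:**
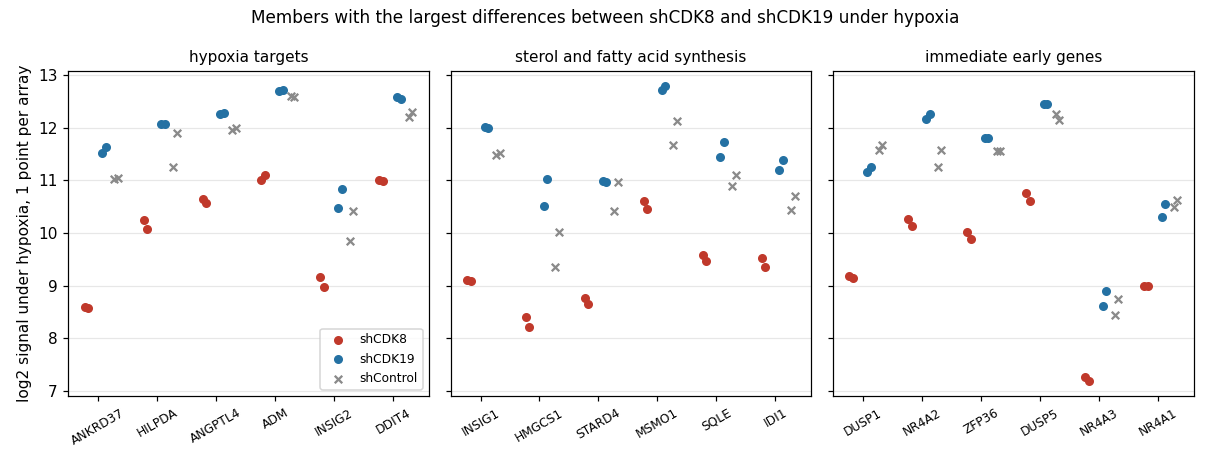
Log2 signal under hypoxia of the 6 members with the largest difference in each of 3 lists, 1 point per array, in shCDK8 (red), shCDK19 (blue) and shControl (grey crosses, outside the fit) cells. The shCDK8 arrays lie below the shCDK19 and shControl arrays for each of these 18 genes, for example at 9.11 and 9.08 against 12.01 and 12.00 for INSIG1.

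ATF4, the transcription factor of the integrated stress response, activates genes of amino acid supply. Of 34 ATF4 targets 24 were lower in the hypoxic shCDK8 line (70.6%, against 13.9% of all genes) and 2 higher (5.88%, against 18.6%). Their median was -0.49. In normal growth 10 were lower (14.3% over all genes) and 4 higher (13.5%), with a median of -0.14. DDIT3, which encodes the stress factor CHOP, had 8.74 and 8.51 in shCDK8 cells and 10.75 and 10.88 in shCDK19 cells, 4.57-fold lower (adjusted p = 1.32e-08), while in normal growth it was 0.34 higher. The asparagine synthetase gene ASNS (-1.42 ± 0.093), the secreted glycoprotein gene STC2 (-1.23 ± 0.18), the stress factor gene ATF3 (-1.10 ± 0.13) and the glutathione-degrading enzyme gene CHAC1 (-0.88 ± 0.12) were lower. DDIT4 and STC2 are also among the hypoxia targets, and ATF3 among the immediate early genes. Of 25 genes of chaperones and folding in the endoplasmic reticulum 7 were lower (28%, against 13.9%) and 4 higher (16%, against 18.6%). DNAJB9 (-0.83), HERPUD1 (-0.80) and EDEM1 (-0.64) were lowest. In normal growth 12 of the 25 were higher (13.5% over all genes) and 1 lower (14.3%). In the 6-array fit with shControl 13 of the 34 and 3 of the 25 passed, against 2273 of 18404 genes.

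Genes of S phase and of mitosis separated. Of 45 S phase and E2F target genes 20 (44.4%) were higher in the hypoxic shCDK8 line and 6 (13.3%) lower, with a median of 0.19. Over all genes the shares were 18.6% higher and 13.9% lower. In normal growth 2 were higher and 35 lower (77.8%, against 14.3% of all genes), with a median of -0.45. In low glucose 1 was higher and 33 were lower (73.3%, against 9.14% of all genes), with a median of -0.36. With 5FU, as under hypoxia, more were higher, 7 (15.6%, against 5.29% of all genes), than lower, 1, with a median of 0.11. The departure was positive for 25 members (13.2% over all genes) and negative for 1 (8.98%), CDT1, the gene of a replication licensing factor (-0.53). Of 43 mitosis genes 29 (67.4%, against 13.9% of all genes) were lower under hypoxia and 1, CENPF, was higher, with a median of -0.49. In normal growth 23 were lower (14.3% over all genes) and 2 higher, with a median of -0.26. With 5FU 1 was lower and 24 were higher (5.29% over all genes), with a median of 0.39.

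CCNE1, which encodes cyclin E1, had 9.32 and 9.23 in hypoxic shCDK8 cells and 8.24 and 8.18 in hypoxic shCDK19 cells (1.07 ± 0.091). The replication genes POLA2, a DNA polymerase alpha subunit (0.86 ± 0.11), MCM10 (0.78 ± 0.091), CHAF1B, a histone chaperone subunit (0.77 ± 0.10), and PCNA, the sliding clamp (0.67), were higher. In normal growth MCM10 differed the other way (-0.43). PRIM1, a primase subunit (-0.80 ± 0.14), CDT1 (-0.76), RRM2 of ribonucleotide reductase (-0.76) and ORC1 (-0.62) were lower under hypoxia. The direction was therefore shared by most but not by all members that passed. Among the mitosis genes, CDC25C, which encodes the phosphatase that activates CDK1 (-1.04 ± 0.13), the centrosomal kinase gene NEK2 (-0.98 ± 0.11), the checkpoint kinase gene TTK (-0.98 ± 0.20), HMMR (-0.96 ± 0.17), NUF2 of the kinetochore (-0.90 ± 0.16) and UBE2C of the anaphase-promoting machinery (-0.89 ± 0.072) were lowest. UBE2C had 10.21 and 10.11 in shCDK8 cells and 10.96 and 11.15 in shCDK19 cells. In the fit of 4 hypoxic and 2 shControl arrays 11 S phase and 12 mitosis genes passed, against 2273 of 18404 genes.

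**Figure D4:**
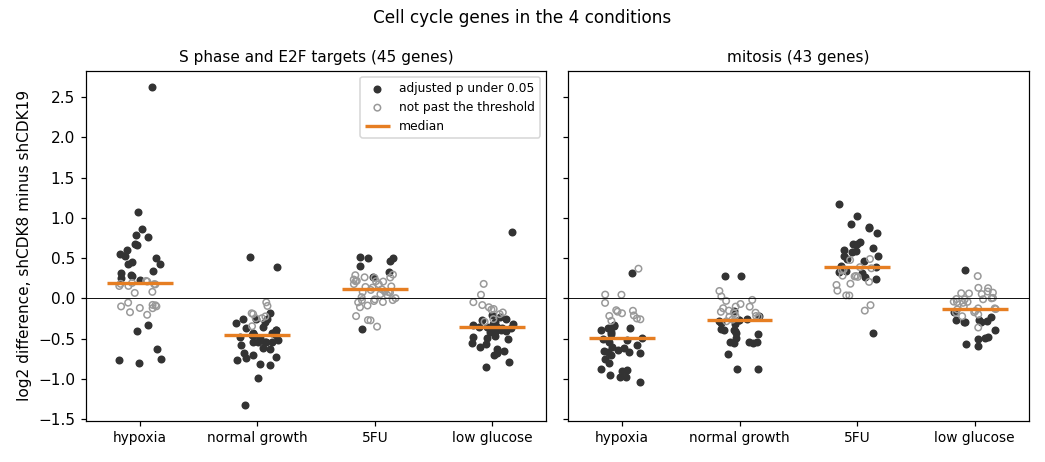
Log2 difference between the lines (shCDK8 minus shCDK19) for 45 S phase and E2F target genes (left) and 43 mitosis genes (right), 1 point per gene, filled where the adjusted p was under 0.05, with an orange bar at the median. The S phase median was 0.19 under hypoxia and 0.11 with 5FU, against -0.45 in normal growth, while the mitosis median was -0.49 under hypoxia and 0.39 with 5FU.

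Replication-dependent histone genes, whose transcripts accumulate in S phase, had 9 of 41 members lower (22%, against 13.9% of all genes) and 0 higher. Their median was -0.16, and H4C3 (-0.74 ± 0.086) was among the lower. More members were lower in normal growth (18, 14.3% over all genes, median -0.27) and in low glucose (16, 9.14% over all genes, median -0.25). With 5FU 10 were higher (5.29% over all genes) and 0 lower. Near-identical members of this family can share probes. Of 18 genes of G1 cyclins, kinases and inhibitors 7 were higher (38.9%, against 18.6% of all genes) and 4 lower (22.2%, against 13.9%). CDKN1B, which encodes the inhibitor p27, was lower (-1.06 ± 0.13), with 9.69 and 9.49 in shCDK8 cells and 10.48 and 10.81 in shCDK19 cells, and CDK6 (0.90 ± 0.15) and CCND3 (0.68 ± 0.088) were higher. With the shControl arrays 4 of the 41 histone genes and 6 of the 18 G1 genes passed, against 2273 of 18404 genes.

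Ribosome biogenesis genes were more often higher than lower, 16 (50%) and 4 (12.5%) of 32, with a median of 0.21. Over all genes the shares were 18.6% higher and 13.9% lower. In normal growth 5 were higher (15.6%, against 13.5% of all genes) and 9 lower (28.1%, against 14.3%). RRS1, a large subunit assembly factor, had 9.46 and 9.37 in shCDK8 cells and 7.74 and 7.72 in shCDK19 cells, 3.21-fold higher (adjusted p = 3.25e-09). UTP20 (1.38 ± 0.096) and UTP15 (1.31 ± 0.14) of the small subunit processome and POLR1A, the largest subunit of RNA polymerase I (1.11 ± 0.070), were also higher. Of 39 nuclear oxidative phosphorylation genes 21 were lower (53.8%, against 13.9% of all genes) and 0 higher, with a median of -0.25. In normal growth 19 were lower (48.7%, against 14.3% of all genes) and 0 higher, with a median of -0.20. UQCRH of complex III (-0.96 ± 0.087) and COX5B (-0.85 ± 0.10) and COX8A (-0.71 ± 0.077) of complex IV differed by most. The fit of the 4 hypoxic arrays called 13 of these 39, against 4914 of 18404 genes. That with shControl arrays called 6, along with 9 ribosome biogenesis genes, against 2273 of 18404 genes.

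**Figure D5:**
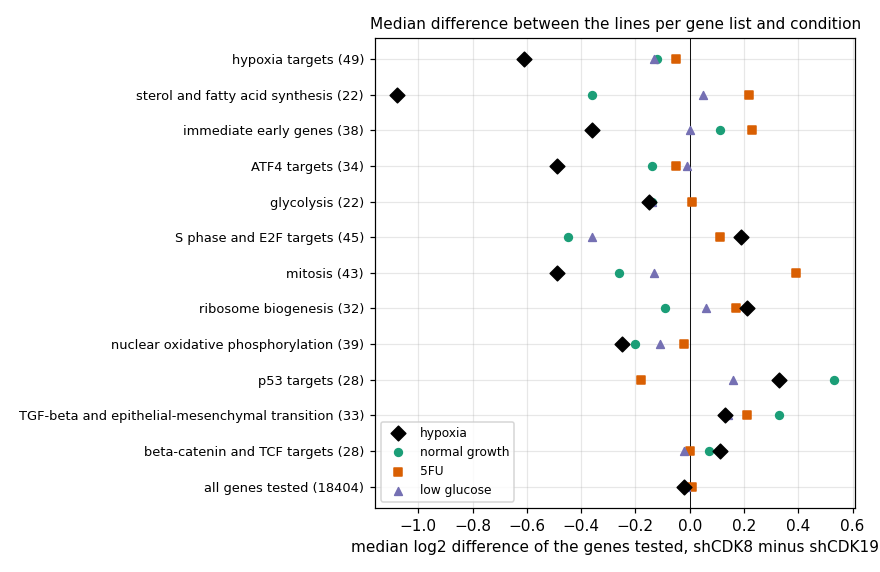
Median log2 difference between the lines (shCDK8 minus shCDK19) of 12 gene lists and of all genes tested, in the 4 conditions, with the number of genes tested in parentheses. Under hypoxia (black diamonds) the median was -1.08 for sterol and fatty acid synthesis, -0.61 for hypoxia targets and 0.19 for S phase genes, against -0.021 for all genes.

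Some genes of Wnt and TGF-beta signalling and of adhesion differed in both hypoxia and normal growth, and others did not pass. Of 28 beta-catenin and TCF targets 11 were higher (39.3%) and 3 lower (10.7%) in either condition, and 14 did not pass. Over all genes the shares were 18.6% and 13.9% under hypoxia and 13.5% and 14.3% in normal growth. The median of these targets under hypoxia, 0.11, became 0.05 after subtraction of the array medians. BMP4, a secreted morphogen gene, had 13.18 and 13.17 in hypoxic shCDK8 cells and 10.78 and 10.51 in hypoxic shCDK19 cells, 5.76-fold higher, and its difference of 2.53 ± 0.071 exceeded the mean of the other 3 conditions by 1.20 ± 0.080 (adjusted p = 2.24e-07). AXIN2, the feedback inhibitor of Wnt signalling (1.87 ± 0.11), and the ligase gene RNF43 (1.53 ± 0.084) were higher too. Of 33 TGF-beta and transition genes 14 were higher (42.4%) and 6 lower (18.2%), against 20 and 3 in normal growth, and 13 did not pass under hypoxia. Their hypoxia median of 0.13 became 0.07 after subtraction of the array medians. The repressor genes SNAI2 (2.39 ± 0.12) and ZEB1 (1.63 ± 0.10) were higher, and CDH1, which encodes E-cadherin, was lower (-1.59 ± 0.088), with 10.05 and 9.97 in shCDK8 cells and 11.56 and 11.64 in shCDK19 cells. Of 18 integrin genes 10 were higher (55.6%), led by ITGA9 (0.96 ± 0.15), and 2 were lower (11.1%), led by ITGA5 (-0.87 ± 0.087). In normal growth 11 were higher and 1 was lower. CDH1 is also 1 of the 5 colon epithelium markers that were lower in the shCDK8 line.

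HCT116 cells retain functional p53. Of 28 p53 targets 15 were higher (53.6%, against 18.6% of all genes) and 4 lower (14.3%, against 13.9%) in the hypoxic shCDK8 line. Their median was 0.33. In normal growth 21 were higher (13.5% over all genes) and 1 lower, with a median of 0.53. With 5FU 1 was higher and 12 were lower (6.81% over all genes). PLK2, a polo-like kinase gene (2.23 ± 0.11), TIGAR, a regulator of glycolysis (2.10 ± 0.15), and the death receptor gene FAS (1.27 ± 0.16) led. TIGAR had 8.25 and 8.03 in shCDK8 cells and 6.07 and 6 in shCDK19 cells. Most APOBEC3 cytidine deaminase genes were higher in the shCDK8 line under hypoxia and in normal growth. In low glucose 6 of the 6 tested were lower (9.14% over all genes). Under hypoxia 5 were higher (83.3%, against 18.6% of all genes) and 1 lower, with APOBEC3G at 2.56 ± 0.22 and APOBEC3F at 0.76 ± 0.099. In normal growth 4 were higher and 0 lower, with a median of 0.44, against 0.63 under hypoxia. The departure from the mean of the 3 other conditions was positive for 5 and negative for 1. Against normal growth alone 0 of the 6 passed. Members of this family resemble each other in sequence, so signals may be shared. Of 42 interferon-stimulated genes 11 were higher (26.2%, against 18.6% of all genes) and 3 lower (7.14%, against 13.9%). IFITM3 was lowest (-1 ± 0.080) and IFI35 highest (0.94 ± 0.13). The median of the 42 genes, 0.04, became -0.02 after subtraction of the array medians. With the shControl arrays in the 6-array fit 10 p53 targets, 6 interferon-stimulated genes and 7 integrin genes passed, against 2273 of 18404 genes.

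Of 26 amino acid transporter genes 9 were higher (34.6%, against 18.6% of all genes) and 8 lower (30.8%, against 13.9%). SLC38A5, a glutamine transporter gene, was lower (-2.67 ± 0.15), and SLC43A2, a transporter of large neutral amino acids, was higher (2.01 ± 0.066), with 9.99 and 10.00 in shCDK8 cells and 8.01 and 7.97 in shCDK19 cells. Among 34 genes of the differentiated intestinal epithelium 4 were higher (11.8%, against 18.6% of all genes) and 2 lower (5.88%, against 13.9%). DPP4, a brush border peptidase gene, was 6.57-fold lower (-2.72 ± 0.14) and CEACAM1, an adhesion molecule gene, 4.24-fold higher (2.09 ± 0.14). Of 31 collagen and matrix genes 10 were higher (32.3%, against 18.6% of all genes) and 3 lower (9.68%, against 13.9%). Their median of 0.06 became 0 after subtraction of the array medians. In normal growth 12 were higher and 3 lower, with a median of 0.09. Among those lower under hypoxia was the laminin gene LAMB3 (-1.50 ± 0.074), whose departure from the other conditions was -1.57. The super elongation complex gene AFF4 was lower (-1.80 ± 0.078), by a similar amount as in normal growth (-1.39), with 5FU (-2.06) and in low glucose (-1.44). It was the extreme of 13 P-TEFb and super elongation complex genes, whose median was -0.01. Of these 13, 5 were lower (38.5%, against 13.9% of all genes), 3 higher (23.1%, against 18.6%) and 5 did not pass. Of 28 NF-kB targets and chemokines 5 were higher (17.9%, against 18.6% of all genes) and 3 lower (10.7%, against 13.9%), led by IL18 (-2.17 ± 0.20) and NFKBIA, the inhibitor of NF-kB (1.07 ± 0.11). In the 6-array fit 8 amino acid transporter genes and 4 of these 28 passed, against 2273 of 18404 genes.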

How the data were processed

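Biotin-labelled RNA was read on Affymetrix gene arrays covering whole transcripts, per the labels' protocols. The deposited values are log2 signals per transcript cluster, made with Partek per the submitters' processing notes. How background was corrected and how arrays were summarised and normalized is not given in the sources used. Of 32321 clusters, 19158 list 1 gene symbol, 1388 several and 11775 none. For each of 18404 genes the cluster with the highest mean was kept, which set aside clusters of 637 genes. The 20 arrays of the shCDK8 and shCDK19 lines were fitted as 8 groups with limma 3.58.1 (lmFit and eBayes) in R 4.3.3, and p-values were adjusted by Benjamini-Hochberg over all genes, with a threshold of 0.05. Errors beside differences are standard errors. An exact permutation test of 2 against 2 arrays cannot go below p = 0.333 and was not used. The precision is limited by the number of arrays. The fit was tested on simulated data. Members, lists and tests were chosen with earlier results of these data known. Named genes were the 15 with the largest difference in each direction, the 10 with the largest departure between conditions and up to 6 per list, and the other listed members named were chosen after their values were seen. Alternative fits, normalizations, filters and the leaving out of arrays are given in the closing section. Promoters are those of RefSeq, GRCh38.p14. Samples with shControl were outside the main fit. They entered the alternative fits of the 6 hypoxic arrays and of all 35 arrays, and hypoxic shControl signals are given as side values.

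The deviations of same-numbered shCDK8 and shCDK19 replicates correlated with r = -0.19 across genes, and the labels do not say what a replicate number marks, so the main fit had no block.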

Additional observations from a re-analysis of the deposited data

Results flagged for a closer look

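The difference between the lines under hypoxia was tested against its mean in the other 3 conditions, and 2427 genes departed in the positive and 1653 in the negative direction. The departures of the named genes were, on the log2 scale, 3.22 for TNFSF18, 2.89 for SNORA38B, 2.57 for LYZ, 2.46 for ID3, 2.44 for CCNE2, 2.42 for SPARC, 2.22 for ZBED2, 2.13 for ZNF594, 2.09 for ABCC2 and 2.07 for FGF9. In the negative direction they were -2.85 for ANKRD37, -2.79 for INSIG1, -2.63 for MXD1, -2.60 for DUSP1, -2.55 for DDIT3, -2.41 for HMGCS1, -2.36 for TSC22D3, -2.35 for IL1RAP, -2.30 for STARD4 and -2.10 for HILPDA. These 20 were chosen by size among the genes that passed the test of the difference between conditions (limma, adjusted over all genes). Their passing is therefore part of the choice and not a further result. Oxygen and experiment cannot be told apart in these departures.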

How the results depend on the processing

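The count of 5988 genes between the hypoxic lines became 2273 in the fit of the 6 hypoxic arrays with shControl; the cause was not tested, and the 4 knockdown arrays alone gave 4914. In the other alternatives that kept at least 2 arrays per group it lay between 5404 and 6707 genes, within 1.5 times the main count. Over all 32321 transcript clusters 7178 passed, a share of 22.2%, against 32.5% of genes. The count of 4080 departures between conditions became 2487 when hypoxia was set against normal growth only, a change of both arrays and conditions whose parts were not tested, and ranged from 2921 to 3338 when 1 hypoxic array was left out. With the replicate block the counts were 5404 and 3403, and with the numbers of the hypoxic arrays crossed, a pairing added after seeing the data, 5478 and 3436. The separate comparison with each of the other conditions was also chosen after seeing the data. LYZ reversed to -0.11 against normal growth alone. Over 190 named gene differences under hypoxia, 3317 of 3415 results under alternatives kept their direction and their side of the threshold, 93 fell below it, 5 passed it and 0 reversed. Most alternatives took the difference from the same values of the 4 hypoxic arrays, so its direction could not change there. It could change only where a hypoxic array was left out, arrays were weighted or values were renormalized. Most of these genes were also chosen among those past the threshold. Of 576 list counts 32 moved by over 1.5 times, 19 of them in the fit with shControl. For the departures of 20 named genes between conditions, 333 of 340 results kept direction and side of the threshold and 6 fell below it. The values limit statements on dim genes, as 211 genes lay at the floor on the 4 hypoxic arrays.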
